A study of Homo sapiens with 10 samples.

Results

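The 4 genes RUNX1, RUNX1T1, PML and RARA are the partners of the fusion genes for which the cell lines Kasumi-1 and NB4 are known. They were taken by gene symbol from the deposited table of each line, which together name 23398 genes. The NB4 table lists all 4, as 46 transcripts. The Kasumi-1 table has 1 row each for RUNX1, RUNX1T1 and RARA, and PML was not analysed here in Kasumi-1. Levels in both lines and the response to the compound JOA were described for each gene.

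RNA was sequenced in 10 libraries. Kasumi-1 is an established line from a human acute myeloid leukaemia with a translocation between chromosomes 8 and 21, and had 3 control libraries and 3 libraries of cells given JOA. NB4 is an established line from a human acute promyelocytic leukaemia with a translocation between chromosomes 15 and 17, and had 2 control and 2 JOA libraries. JOA was given at 1 µM and the cells were taken after 48 h. The labels give no structure for JOA and no further detail of the control. For the treated NB4 libraries 1 label names I13, while the title, agent and treatment labels name JOA, and these libraries are called JOA here. Each fusion is represented by 1 cell line. No label says whether the libraries of a group are separate cultures. The p-values thus measure only how far these samples spread, and that spread may be technical.

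The genes lie far apart in the genome. RUNX1 (ENSG00000159216.18) spans chr21:34787801-36004667 on the reverse strand of GRCh38, in the GENCODE annotation. RUNX1T1 (ENSG00000079102.16) spans chr8:91954967-92103286 on the reverse strand. PML (ENSG00000140464.19) spans chr15:73994673-74047812 and RARA (ENSG00000131759.17) spans chr17:40309192-40357643, both on the forward strand. RARA and RUNX1T1 each overlap an antisense gene, RARA-AS1 and AF181450.1. RARA also overlaps AC080112.3 on the opposite strand. RUNX1 overlaps AF015262.1 and MIR802 on the opposite strand, AF015720.1 on the same strand, and pseudogenes on both. The library kit keeps the strand, but the strand setting of the counting is not given in the sources used here.

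RUNX1 encodes the DNA-binding subunit of core binding factor, which pairs with CBFB and is required for the formation of blood stem cells. RUNX1T1, also called ETO, encodes a corepressor that recruits histone deacetylases. The fusion protein RUNX1-RUNX1T1 keeps the DNA-binding domain of RUNX1 and nearly all of RUNX1T1, and its message is driven by the RUNX1 promoter. PML encodes the scaffold of PML nuclear bodies, and RARA encodes a retinoic acid receptor that binds DNA with a retinoid X receptor. PML-RARA joins the N-terminal part of PML to the DNA-binding and ligand-binding domains of RARA, and retinoic acid and arsenic trioxide act on it in treatment. Neither table has a row for a fused transcript. A level given here for a partner gene therefore does not separate messages of the intact gene from those of the fusion.

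The sequences below are shown because the transcripts that hold most of RARA and RUNX1 in NB4 start at the downstream RARA and the proximal RUNX1 promoter, with the upstream RARA promoter shown for comparison, and because transcripts of RARA divide by 2 exons that lie at the edge of the fusion. In NB4 cells the fusion is known to join PML exon 6 to RARA exon 3. These are the annotated exons of the intact genes from the GENCODE transcripts, 5′ to 3′, and the capitals mark the 20 bases at the side where the fusion message joins. PML exon 6 lies at chr15:74033156-74033414, RARA exon 3 at chr17:40348316-40348464 and RARA exon 4 at chr17:40349784-40349925, all on the forward strand of GRCh38 and coding over their whole length of 259, 149 and 142 bases. RARA exons 3 and 4 encode the zinc fingers that bind DNA.
PML-201 exon 6: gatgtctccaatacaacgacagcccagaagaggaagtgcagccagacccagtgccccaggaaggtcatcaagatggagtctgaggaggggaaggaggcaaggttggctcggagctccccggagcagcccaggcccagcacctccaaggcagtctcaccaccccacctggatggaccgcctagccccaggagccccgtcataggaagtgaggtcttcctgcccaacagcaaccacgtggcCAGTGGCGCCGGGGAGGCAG
RARA-204 exon 3: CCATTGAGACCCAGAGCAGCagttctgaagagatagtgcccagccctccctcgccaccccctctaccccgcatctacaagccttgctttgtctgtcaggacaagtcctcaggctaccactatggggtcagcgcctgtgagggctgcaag
RARA-204 exon 4: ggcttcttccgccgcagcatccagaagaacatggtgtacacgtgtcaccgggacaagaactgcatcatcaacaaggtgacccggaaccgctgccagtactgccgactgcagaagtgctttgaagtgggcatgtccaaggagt
The promoter windows come from RefSeq on GRCh38.p14 and run from 250 bases before to 50 bases after a start. RefSeq has 3 windows for RARA and 1 for RUNX1. PML and RUNX1T1 have no entry. The upstream RARA window is chr17:40308930-40309229 and the downstream one shown is chr17:40317995-40318294, both on the forward strand. The RUNX1 window is chr21:34888650-34888949 on the reverse strand. Capitals mark matches on either strand to GGGCGG (the GC box), AGGTCA and GGTTCA (half-sites of retinoid receptors) and TGTGGT (the RUNX motif).
RARA upstream window: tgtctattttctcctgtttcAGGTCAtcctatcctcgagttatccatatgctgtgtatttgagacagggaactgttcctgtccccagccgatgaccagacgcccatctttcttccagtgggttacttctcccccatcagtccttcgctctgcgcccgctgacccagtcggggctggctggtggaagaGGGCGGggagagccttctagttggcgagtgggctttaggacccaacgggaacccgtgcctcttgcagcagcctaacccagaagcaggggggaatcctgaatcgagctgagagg
RARA downstream window: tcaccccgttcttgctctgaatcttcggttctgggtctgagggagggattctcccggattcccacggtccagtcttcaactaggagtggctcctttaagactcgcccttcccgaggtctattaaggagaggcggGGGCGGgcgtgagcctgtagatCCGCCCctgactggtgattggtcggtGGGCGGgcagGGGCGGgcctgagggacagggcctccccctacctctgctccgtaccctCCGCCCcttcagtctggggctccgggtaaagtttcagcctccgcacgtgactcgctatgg
RUNX1 proximal window: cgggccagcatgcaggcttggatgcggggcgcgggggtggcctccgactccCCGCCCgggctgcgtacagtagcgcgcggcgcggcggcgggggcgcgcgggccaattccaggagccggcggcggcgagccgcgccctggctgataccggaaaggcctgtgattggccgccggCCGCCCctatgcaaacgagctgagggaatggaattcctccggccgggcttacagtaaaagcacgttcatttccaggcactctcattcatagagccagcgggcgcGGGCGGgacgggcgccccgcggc
The downstream RARA window holds 5 GC boxes, the upstream one 1 and the RUNX1 window 3. Of 35116 windows of this length, 45.0% hold a GC box. AGGTCA is found once in the upstream RARA window and is held by 13.8% of all windows. GGTTCA (8.62% of all windows) and TGTGGT (13.1%) have no match in these 3 windows. A base composition of 72.0% G and C was found in the RUNX1 window, 63.0% in the downstream and 57.0% in the upstream RARA window, against a median of 58.7% over all windows. CpG dinucleotides numbered 40 in the RUNX1 window, 19 in the downstream and 12 in the upstream RARA window. The windows are described by their letters alone.

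The lines differed in which partner genes they expressed. RUNX1 was well expressed in both, RUNX1T1 was found at a level only in Kasumi-1, and RARA stood at a similar level to PML in NB4. No partner gene passed the test for a change with JOA in either line. Values are FPKM in Kasumi-1 and TPM in NB4, both per transcript length. The tables were normalised separately, so no test sets a level in one line against the other, and percentiles within a library are given instead. In these cultures fewer cells of a type and less RNA per cell cannot be told apart.

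In Kasumi-1 control libraries 1 to 3, RUNX1 was at 37.3, 38.3 and 36.2 FPKM, above 95.3 to 95.5% of the rows with a value above 0. RUNX1T1 was at 19.4, 19.2 and 17.9 FPKM in the same libraries, above 89.2 to 90.3% of those rows. RARA was at 3.10, 3.58 and 2.99 FPKM, above 61.1 to 63.7% of them. The order RUNX1, RUNX1T1, RARA held in all 6 Kasumi-1 libraries, and the ranges of the 3 genes did not overlap. Each row carries 1 sequence record. GENCODE release 29 pairs the RUNX1 record with RUNX1-202, the RUNX1T1 record with RUNX1T1-248 and the RARA record with RARA-206. RUNX1-202 is the 453-codon form that starts at the proximal promoter. RARA-206 has 365 codons and lacks both zinc finger exons shown above. Whether a row collects reads of the whole gene or of that record is not given in the sources used here.

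In NB4 control libraries 1 and 2, RUNX1 was at 54.8 and 45.6 TPM, PML at 52.7 and 48.2 TPM and RARA at 45.3 and 49.4 TPM. These 3 genes overlapped in level and lay above 82.2 to 85.1% of the genes with a value above 0. No order among them exceeded the spread between the libraries. RUNX1T1 was listed at 0 in both control libraries, at 0.00679 TPM in JOA library 1 and at 0.0159 TPM in JOA library 2. Of the 52 annotated transcripts of RUNX1T1, 2 are listed in the NB4 table, RUNX1T1-201 and RUNX1T1-203, and each was above 0 in 1 JOA library. The gene did not reach the minimum of 1 TPM in 2 libraries and was not tested in NB4 alone.

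**Figure D1:**
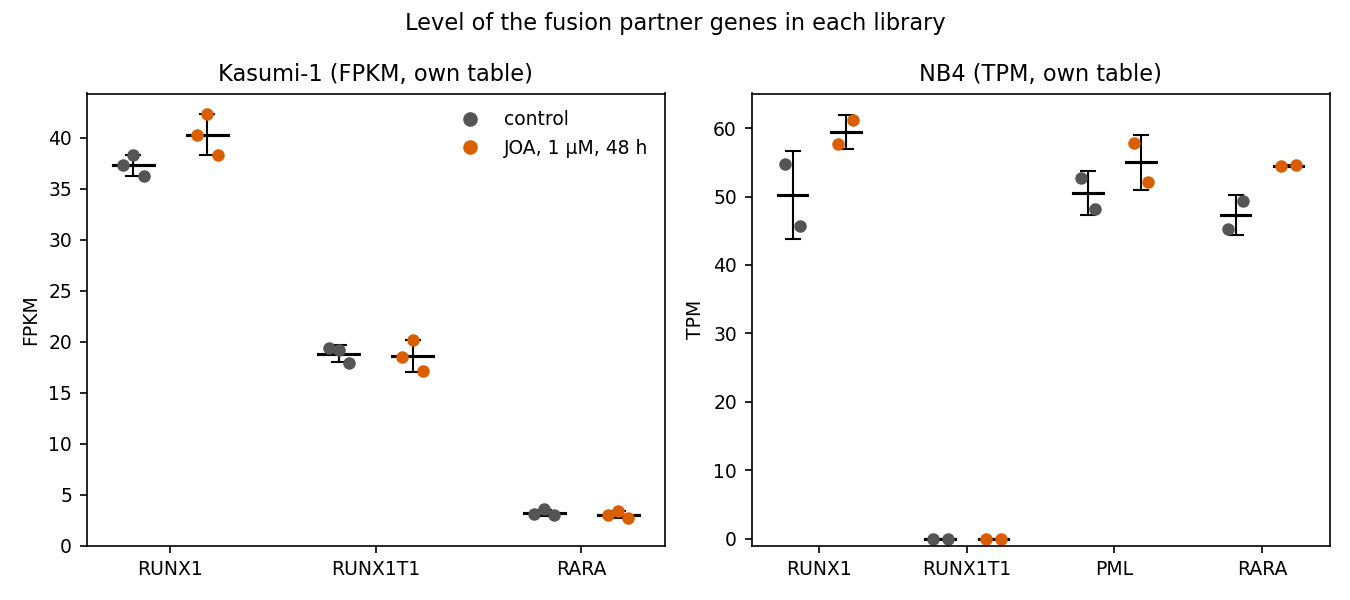
Level of each partner gene per library, in FPKM for Kasumi-1 (left) and TPM for NB4 (right), on linear axes that are not comparable between panels. Points are libraries, horizontal bars are group means and error bars are SDs (n = 3 per group in Kasumi-1, n = 2 in NB4). RUNX1 lies above RUNX1T1 and RARA in Kasumi-1, and RUNX1T1 lies at or near 0 in NB4.

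Of the genes taken to define the lines, KIT set them apart and MPO did not. KIT, the stem cell factor receptor that is high in Kasumi-1, was at 244 FPKM in Kasumi-1 and at 0.896 TPM in NB4 (control means). MPO, the granule enzyme myeloperoxidase, was high in both. The NB4-defining set of MPO, HGF and CTSG summed to 8114 to 8344 TPM in NB4 controls and 4831 to 6131 TPM with JOA. The 2 of these with a Kasumi-1 row summed to 5387 to 6099 FPKM in Kasumi-1 controls. These sums were thus high in both lines, and MPO made up most of them in NB4 controls. HGF and CTSG are not given apart here, and the sums gave no check of the NB4 label. The summed level of 3 erythroid markers stayed at 0.583 TPM or below in all NB4 libraries and that of 3 fibroblast markers at 0.802 TPM or below. The 3 T cell markers, of which 1 was under 1 TPM, summed to 26.2 to 27.4 TPM in NB4 controls and 35.9 to 47.3 TPM with JOA. The 3 epithelial markers summed to 38.1 to 39.0 TPM in NB4 controls and 53.1 to 54.7 TPM with JOA. RUNX1 and RARA also had higher means with JOA in NB4, and the part of these markers in that was not tested. In Kasumi-1 the epithelial marker EPCAM was at 35.5 to 44.4 FPKM in controls and 33.1 to 43.3 FPKM with JOA, and the B cell marker CD79A was at 0.722 to 1.69 FPKM over all libraries. The 2 erythroid markers with a Kasumi-1 row summed to at most 0.0684 FPKM. The T cell and fibroblast markers and the other epithelial and B cell markers were not analysed in Kasumi-1.

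No partner gene was called in Kasumi-1. RUNX1 had a higher mean with JOA, RUNX1T1 was nearly level and RARA had a lower mean. In Kasumi-1, RUNX1 was at 37.3, 38.3 and 36.2 FPKM in controls and at 40.2, 42.3 and 38.3 FPKM in JOA libraries 1 to 3. Each JOA library was above the control of the same number, and the groups overlapped only through the highest control and the lowest JOA value, both 38.3 FPKM. The means were 37.3 ± 1.02 and 40.3 ± 2.03 FPKM (SD, n = 3 each). On the log2(FPKM + 1) scale the change was 0.11 (SE 0.06), with a limma adjusted p = 0.388 without pairing and 0.117 with the replicate number as a block. Of 12101 features tested, 61.9% had a mean change above 0 and 36% were higher with JOA in all 3 same-numbered pairs. A feature is a gene symbol or a row without one, and shares of all Kasumi-1 genes given here count both. The median change of all genes was 0.05.

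RUNX1T1, the corepressor partner, was at 19.4, 19.2 and 17.9 FPKM in Kasumi-1 controls and at 18.5, 20.2 and 17.1 FPKM with JOA. The highest and the lowest value both belonged to JOA libraries, so the groups overlapped throughout. The means were 18.8 ± 0.822 and 18.6 ± 1.55 FPKM (SD, n = 3 each), and the log2 change was -0.02 (SE 0.07, limma adjusted p = 0.918, and 0.799 with the block). RARA in Kasumi-1 was at 3.10, 3.58 and 2.99 FPKM in controls and at 3.00, 3.40 and 2.71 FPKM with JOA. It was lower with JOA in all 3 same-numbered pairs, as 17.8% of the genes tested were, and the groups overlapped. The log2 change of RARA was -0.06 (SE 0.10, limma adjusted p = 0.790, and 0.523 with the block).

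These misses stood in a fit that called few genes. In Kasumi-1 the unpaired limma fit called 0 of 12101 features (0% of those tested) at an adjusted p under 0.05, and 1982 (16.4%) at an unadjusted p under 0.05. With the replicate block it called 985 features (8.14%), of which 736 were higher (6.08%) and 249 lower (2.06%). With any 1 of the 3 pairs left out, the block fit called 0 features.

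In NB4 the unpaired fit called 1 of 12932 genes (0.00773%) and 1375 (10.6%) at an unadjusted p under 0.05. None of the 3 partner genes tested was called. RUNX1 was at 54.8 and 45.6 TPM in controls and at 57.6 and 61.2 TPM with JOA, so both JOA libraries were above both controls. The means were 50.2 ± 6.45 and 59.4 ± 2.53 TPM (SD, n = 2 each), and limma gave a log2 change of 0.24 (SE 0.13, adjusted p = 0.537). This change was 0.37 without control 1 and 0.12 without control 2. PML, the nuclear body scaffold and fusion partner in this line, was at 52.7 and 48.2 TPM in controls and at 57.8 and 52.2 TPM with JOA. JOA library 2 lay below control 1, so the groups of PML overlapped. The means of PML were 50.5 ± 3.17 and 55.0 ± 3.98 TPM (SD, n = 2 each), and limma gave a log2 change of 0.12 (SE 0.12, adjusted p = 0.731). It was 0.058 without control 2 and 0.048 without JOA library 1, and 0.18 without control 1 and 0.19 without JOA library 2.

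RARA in NB4 was at 45.3 and 49.4 TPM in controls and at 54.5 TPM in both JOA libraries. Both JOA libraries were above both controls. The means were 47.3 ± 2.91 and 54.5 ± 0.0271 TPM (SD, n = 2 each), and limma gave a log2 change of 0.20 (SE 0.11, adjusted p = 0.560). Groups that do not overlap, as for RUNX1 and RARA, were common in this table. Of the genes tested in NB4, 43.5% had groups that did not overlap, 32.5% with JOA higher and 11% with JOA lower. The median change of all NB4 genes was 0.08, and 66.2% had a mean change above 0. With libraries rescaled by median ratios, that median was 0.00 and the changes were 0.15 for RUNX1, 0.02 for PML and 0.11 for RARA.

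**Figure D2:**
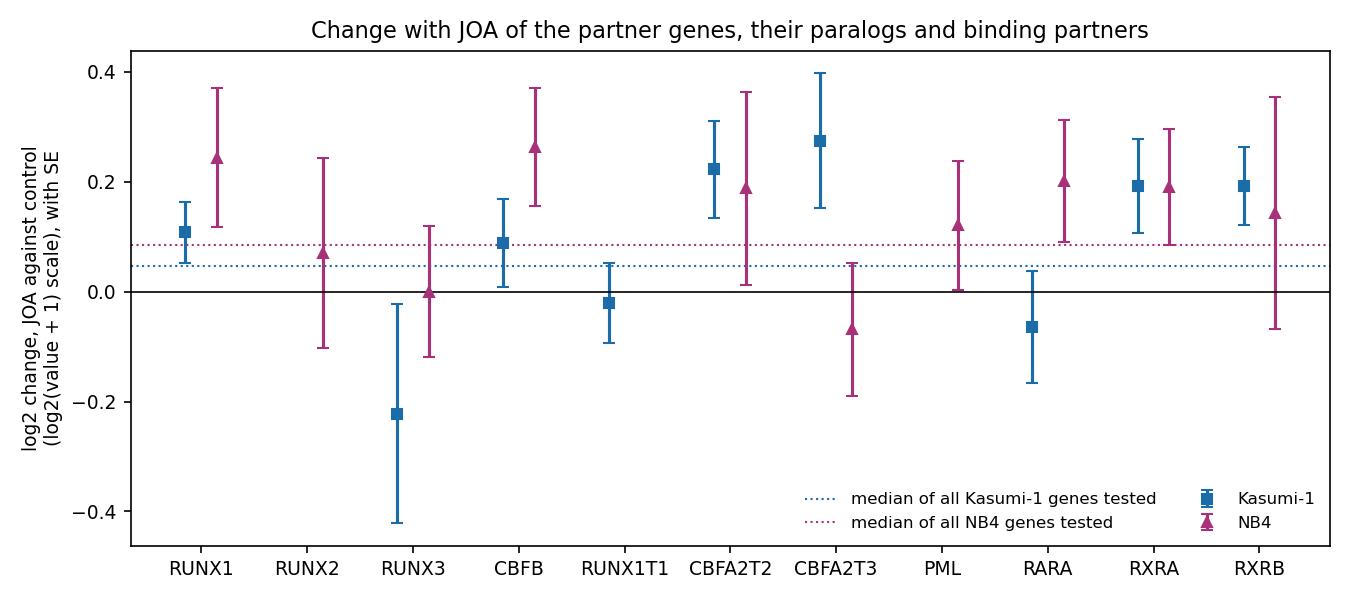
Mean log2 change with JOA on the log2(value + 1) scale for the partner genes, their paralogs and binding partners in Kasumi-1 (squares) and NB4 (triangles). Error bars are SEs from limma and dotted lines are the medians of all genes tested, 0.05 in Kasumi-1 and 0.08 in NB4. PML and RUNX2 have a value for NB4 only, and RUNX1T1 for Kasumi-1 only.

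The response of the same gene was also compared between the line that carries its fusion and the other line, as a difference of the log2 changes in 1 limma fit over the 10 libraries. RUNX1 had a change smaller by 0.14 in Kasumi-1, the line with its fusion, than in NB4 (difference -0.14, SE 0.12, adjusted p = 0.684). This difference was -0.27 without NB4 control 1 and -0.0072 without NB4 control 2, and -0.09 with median-ratio scaling or without NB4 JOA library 2. RARA had a difference of -0.27 between Kasumi-1 and NB4, the line with its fusion (SE 0.15, adjusted p = 0.505). RUNX1T1, with no level in NB4 that could change, was not compared. The fit called 14 of 7261 genes (0.193%), and neither of these. RARA was lower with JOA in all 3 Kasumi-1 pairs, and both NB4 JOA libraries were above both NB4 controls. That combination was found in 249 of 5769 genes past the filter in both lines (4.32%). It was set by the values of RARA itself, so this share is a description only. PML could not be compared between the lines.

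The levels of the 2 partners of a fusion were next set against each other within each library, which removes the scaling of the library. The ratio of RUNX1T1 to RUNX1 in Kasumi-1 was 0.520, 0.502 and 0.494 in controls and 0.459, 0.477 and 0.447 with JOA. All 3 JOA libraries lay below all 3 controls. The mean ratio was 0.505 ± 0.0135 in controls and 0.461 ± 0.0151 with JOA (SD, n = 3 each), a change of -8.74%. The 2-sided exact permutation p was 0.1, the smallest that 3 against 3 libraries can give, and 0.15 when adjusted over the 3 ratios tested in Kasumi-1. This test did not use the pairing by replicate number, and no paired test of a ratio was made. Groups without overlap were found for 23.1% of single genes in this table, 16% with JOA higher and 7.1% with JOA lower. The ratio follows from the values of both genes given above, with RUNX1 higher on average and RUNX1T1 nearly level.

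The ratio of RARA to RUNX1 in Kasumi-1 was 0.0830, 0.0934 and 0.0826 in controls and 0.0746, 0.0804 and 0.0708 with JOA, again without overlap (exact permutation p = 0.1, adjusted p = 0.15). Against RUNX1T1 the RARA level gave ratios of 0.160, 0.186 and 0.167 in controls and 0.163, 0.169 and 0.159 with JOA, which overlapped (exact permutation p = 0.6, adjusted p = 0.6). RARA was thus an order of magnitude below RUNX1 in every Kasumi-1 library.

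In NB4 the ratio of RARA to PML was 0.858 and 1.02 in controls and 0.943 and 1.05 with JOA. The groups overlapped, and the controls spanned nearly the whole range. With 2 libraries a group no exact test can fall below 0.333, so none was made. PML to RUNX1 was 0.963 and 1.06 in controls against 1.00 and 0.853 with JOA, and RARA to RUNX1 was 0.827 and 1.08 against 0.946 and 0.891. No ratio in NB4 separated the groups. Read only from the transcripts that match the Kasumi-1 records, RARA-206 to RUNX1-202 was 0.368 and 0.484 in NB4 controls and 0.452 and 0.421 with JOA. By either reading RARA stood nearer to RUNX1 in NB4 than the 0.0708 to 0.0934 of Kasumi-1, a difference between separately made tables that was not tested.

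**Figure D3:**
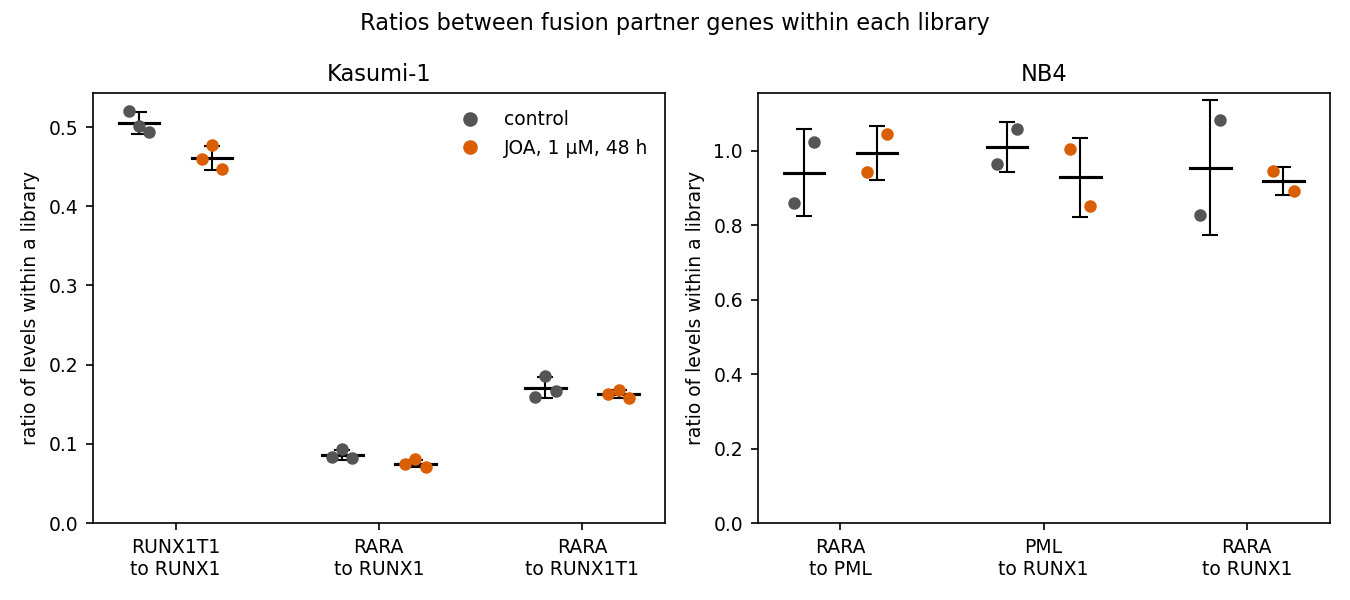
Ratio of the levels of 2 partner genes within each library, for Kasumi-1 (left) and NB4 (right), with group means and SDs (n = 3 per group in Kasumi-1, n = 2 in NB4). Both axes start at 0 and differ in scale. RUNX1T1 to RUNX1 and RARA to RUNX1 separate the groups in Kasumi-1, and no ratio does so in NB4.

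The NB4 table gives transcripts, which allowed the partner genes to be divided by start and by exon. RUNX1 is known for a distal and a proximal promoter, whose products differ at the N-terminus. The proximal start at chr21:34888690 held 59.7 and 58.5% of RUNX1 TPM in controls and 58.4 and 52.6% with JOA. The 5 transcripts of the distal start held 14.9 and 13.0% in controls and 16.5 and 19.6% with JOA. The proximal share was thus the larger in all 4 libraries, and for both starts the extreme value was in JOA library 2. RUNX1-202, the 453-codon proximal form, was at 32.4 and 26.7 TPM in controls and at 33.1 and 31.3 TPM with JOA (log2 change 0.12, limma adjusted p = 0.899). RUNX1-207, the 480-codon distal form, was at 6.56 and 4.15 TPM in controls and at 7.01 and 9.23 TPM with JOA. The groups of RUNX1-207 did not overlap, as for 37.6% of the 51643 transcripts tested (24.5% with JOA higher and 13.2% with JOA lower), and it did not pass the test (log2 change 0.54, SE 0.27, limma adjusted p = 0.762). The change of RUNX1-207 was 0.26 without control 2 and 0.36 without JOA library 2, and 0.81 without control 1.

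The other RUNX1 transcripts were mostly short or noncoding. RUNX1-215, a processed transcript of 2 exons, held 8.43 to 13.5% of the gene in the 4 libraries. RUNX1-205, with 389 codons, was at 3.50 and 3.15 TPM in controls and at 4.72 and 1.76 TPM with JOA. RUNX1-210 was at 1.35 and 2.43 TPM in controls and at 0.972 and 6.01 TPM with JOA. Its highest and lowest values were both in the JOA group. RUNX1-206, a 3-exon fragment at the distal start, was at 0.467 TPM and listed at 0 in controls and was at 1.27 and 2.48 TPM with JOA (log2 change 1.21, limma adjusted p = 0.737). RUNX1-204 and RUNX1-213 stayed at 2.18 TPM or below in every library.

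For RARA, most TPM was assigned to transcripts annotated to start in the downstream window shown above. RARA-204 and RARA-206, which start at chr17:40318281 and chr17:40318285, together held 82.9 and 82.3% of RARA TPM in controls and 82.9 and 80.3% with JOA. Transcripts of the upstream window held 4.13 and 5.51% in controls and 3.49 and 6.75% with JOA. RARA-202, the 457-codon form known as the second isoform of the receptor, was at 0.317 TPM in control 1 and 0.275 TPM in JOA library 1 and listed at 0 in the other two libraries. Transcripts annotated to the downstream start were thus assigned most of RARA TPM with and without JOA. No fused transcript is listed, so reads of the fusion cannot be told from reads of these transcripts. The shares therefore do not measure how often each start is used.

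RARA-204, the full-length receptor of 462 codons, was at 25.6 and 27.7 TPM in controls and at 30.2 and 30.6 TPM with JOA. RARA-206 was at 11.9 and 12.9 TPM in controls and at 14.9 and 13.2 TPM with JOA. In both transcripts the JOA libraries lay above the controls, as for 24.5% of all NB4 transcripts tested. Neither passed the test (log2 change 0.19, SE 0.13, limma adjusted p = 0.811 for RARA-204, and 0.16, SE 0.16, adjusted p = 0.870 for RARA-206). The change of RARA-206 was 0.080 without JOA library 1 and 0.25 without JOA library 2. Their shares of the gene were nearly level. RARA-204 held 56.4 ± 0.286% in controls and 55.8 ± 0.532% with JOA, and RARA-206 held 26.2 ± 0.135% and 25.8 ± 2.32% (SD, n = 2 each). RARA-203, a form of 478 codons, was at 1.83 and 1.78 TPM in controls and was listed at 0 in both JOA libraries. Its limma p was 0.004 before adjustment and 0.731 after, and 6.72% of all transcripts tested had an unadjusted p under 0.05. RARA-205 and RARA-208 had values of 0.870 to 5.19 TPM over the 4 libraries, with groups that overlapped.

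RARA exons 3 and 4, at the edge of the fusion, had the lowest share of TPM among the 9 exons of RARA-204. The share of an exon is summed from annotated transcripts and is no count of reads over it. Transcripts that hold exon 3 summed to 63.5 and 63.0% of RARA TPM in controls and 60.4 and 60.4% with JOA. Exon 5 was held by 96.5 and 95.4% in controls and by 93.7 and 93.7% with JOA, and exon 2 by 86.4 to 87.8% over the 4 libraries. The 4 transcripts without the midpoint of exon 3, RARA-206 the largest of them, summed to 16.5 and 18.3 TPM in controls and to 21.6 TPM in both JOA libraries. Those with exon 3 summed to 28.7 and 31.1 TPM in controls and to 32.9 and 33.0 TPM with JOA. RARA-206 drops the 291 bases of exons 3 and 4, which is 97 codons, and holds exons 5 to 9, which encode the ligand-binding domain. It is also annotated to end at chr17:40357643, further downstream than any other RARA transcript. The part of that longer end, and of reads of the fusion, in its share was not tested.

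PML is known for a common N-terminus with alternatively spliced C-termini. PML-201, the longest form with 882 codons, was at 18.7 and 17.9 TPM in controls and at 22.2 and 20.0 TPM with JOA. It held 36.3 ± 1.22% of the gene in controls and 38.4 ± 0.102% with JOA (SD, n = 2 each). Both JOA libraries were above both controls in level, as for 24.5% of all NB4 transcripts tested. The change did not pass the test (log2 change 0.20, SE 0.14, limma adjusted p = 0.819, and 0.12 without JOA library 1). PML-203, with 781 codons, was at 10.7 and 8.58 TPM in controls and at 11.0 and 6.87 TPM with JOA, so JOA held both the highest and the lowest value. PML-211 was at 1.42 TPM and listed at 0 in controls and was at 2.54 and 3.63 TPM with JOA (log2 change 1.38, SE 0.49, limma adjusted p = 0.739). The change of PML-211 was 0.74 without control 2. The other 10 PML transcripts past the filter stayed at 4.64 TPM or below in every library. These were PML-202, PML-206, PML-207, PML-209, PML-212, PML-214, PML-215, PML-218, PML-221 and PML-222.

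PML exon 6, the last PML exon before the fusion, was held by transcripts with 87.2 and 85.3% of PML TPM in controls and 89.2 and 84.4% with JOA. Exon 7 was held by nearly the same share, 84.4 to 89.9% over the 4 libraries. Exon 8 was held by 52.5 to 57.5% and exon 9 by 38.8 to 40.8%. Exon 5, which is skipped in part of the transcripts, was held by 55.2 and 56.1% in controls and 57.9 and 50.7% with JOA. Because the table assigns all reads to annotated transcripts of the intact genes, these shares do not show how many messages stop at the fusion point. JOA library 2 had the lowest share at exons 1, 2 and 4 to 7 of PML and at exons 4 to 9 of RUNX1.

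**Figure D4:**
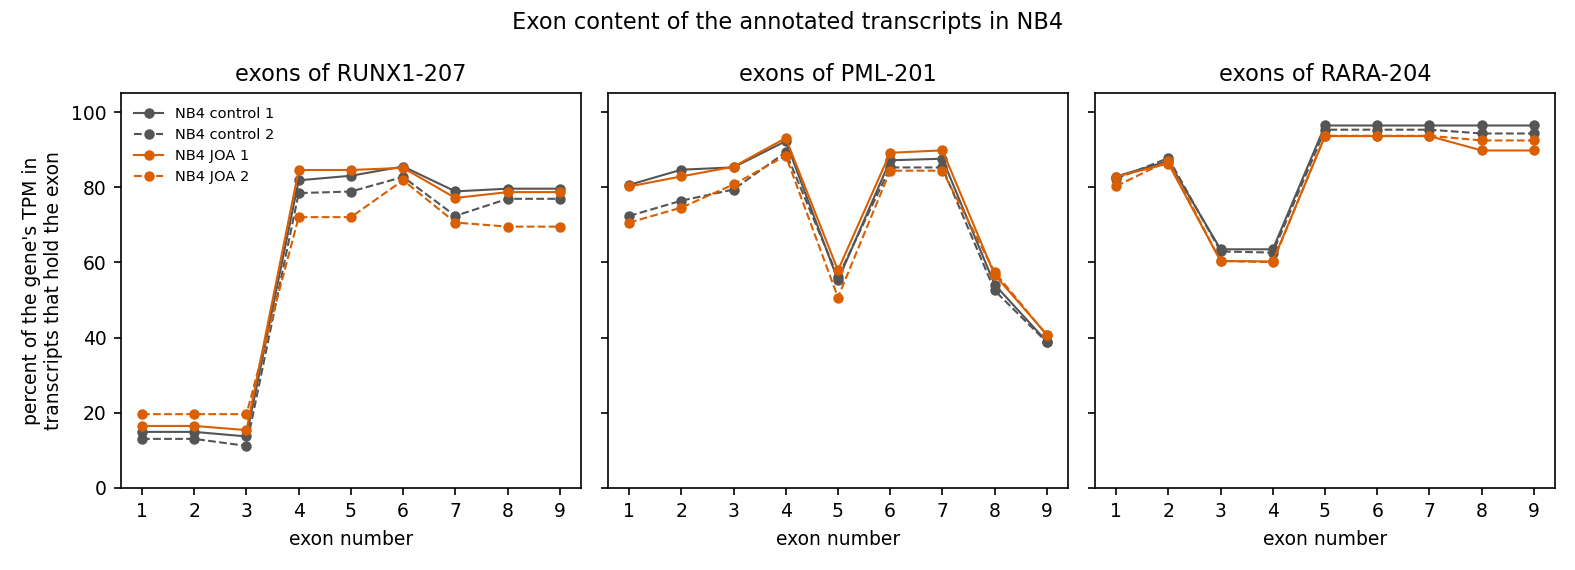
Percent of the summed TPM of a gene in transcripts that hold the midpoint of the coding part of each exon, by exon number of RUNX1-207, PML-201 and RARA-204 in the 4 NB4 libraries. Lines are single libraries. Exons 1 to 3 of RUNX1-207, of the distal start, are at 11.2 to 19.6%, and RARA-204 exons 3 and 4 are at 60.1 to 63.5%.

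**Figure D5:**
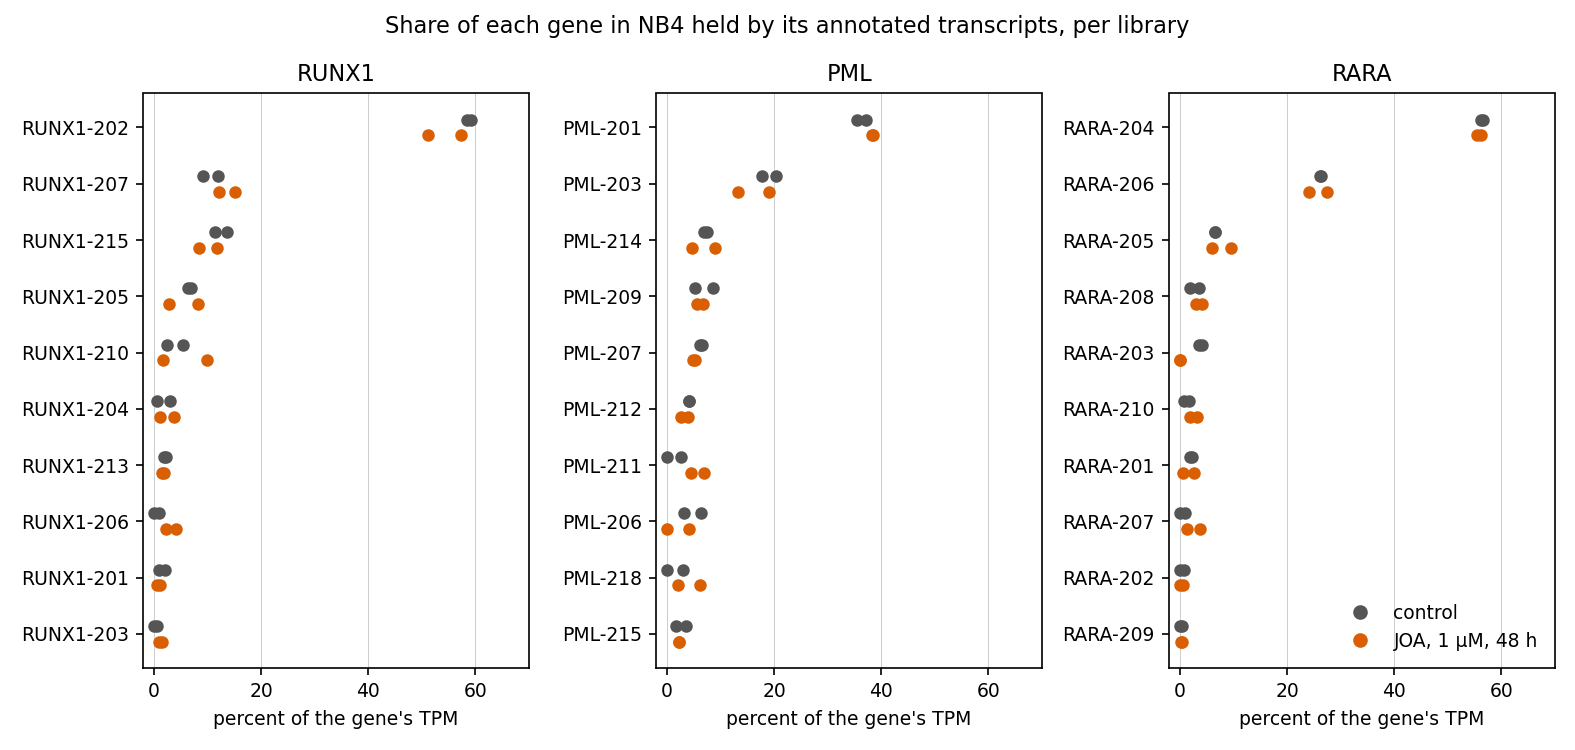
Percent of the TPM of RUNX1, PML and RARA held by the 10 transcripts with the largest mean share in each gene, per NB4 library. Each point is a library, grey for control and orange for JOA. RUNX1-202, PML-201 and RARA-204 hold the largest share of their gene in every library.

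Among the transcripts of RUNX1, PML and RARA, 26 passed the filter in NB4 and none was called. Over the whole table the fit called 0 of 51643 transcripts (0%), with a lowest adjusted p of 0.295, and 3469 (6.72%) had an unadjusted p under 0.05. Among the 26, 8 (30.8%) had groups that did not overlap, against 37.6% of all transcripts tested.

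The paralogs and binding partners of these genes were read from the same fits. RUNX3, a RUNX paralog, was at 11.9 ± 2.32 FPKM in Kasumi-1 controls and 10.2 ± 2.94 FPKM with JOA (SD, n = 3 each). Its log2 change of -0.22 did not pass the limma test (adjusted p = 0.620, and 0.084 with the block). In NB4, RUNX3 was at 44.8 TPM in both groups. RUNX2 was at 20.2 ± 4.54 TPM in NB4 controls and 21.0 ± 0.636 TPM with JOA (SD, n = 2 each), and was not analysed here in Kasumi-1. CBFB, the partner that stabilises RUNX1 on DNA, was at 25.3 ± 2.34 and 26.9 ± 1.56 FPKM in Kasumi-1. In NB4, CBFB was at 71.0 and 68.0 TPM in controls and at 79.6 and 87.9 TPM with JOA (log2 change 0.26, limma adjusted p = 0.453). Its groups did not overlap, as for 32.5% of NB4 genes with JOA higher.

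The relatives of RUNX1T1 were expressed in both lines. CBFA2T3, a corepressor of the same family, was at 4.95 ± 0.643 FPKM in Kasumi-1 controls and 6.21 ± 0.948 FPKM with JOA (SD, n = 3 each). It did not pass the limma test (log2 change 0.27, adjusted p = 0.327, and 0.077 with the block). In NB4, where RUNX1T1 was near 0, CBFA2T3 was at 91.5 and 83.1 TPM in controls and at 90.0 and 76.7 TPM with JOA, the highest of the family. CBFA2T2 was at 4.69 ± 0.454 and 5.63 ± 0.403 FPKM in Kasumi-1 (log2 change 0.22, limma adjusted p = 0.277, and 0.057 with the block). All 3 JOA libraries of CBFA2T2 lay above all 3 controls, as for 16% of the Kasumi-1 genes. In NB4 it was at 6.31 and 7.33 TPM on average.

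RARA was the highest of the retinoic acid receptor genes RARA, RARB and RARG in every library. RARB was at 0.228 FPKM or below in every Kasumi-1 library and at 0.108 TPM or below in every NB4 library. RARG was at 0.111 FPKM or below in Kasumi-1 and at 0.486 to 1.71 TPM in NB4. RXRA, a partner of RARA on DNA, was at 3.59 ± 0.195 FPKM in Kasumi-1 controls and 4.25 ± 0.387 FPKM with JOA, and at 61.1 ± 0.828 and 69.9 ± 2.68 TPM in NB4. Neither change passed the limma test (log2 change 0.19 in both lines, adjusted p = 0.329 and 0.559). RXRB was at 13.6 ± 1.05 and 15.7 ± 0.734 FPKM in Kasumi-1 (log2 change 0.19, limma adjusted p = 0.254, and 0.065 with the block) and at 3.66 ± 0.621 and 4.13 ± 0.212 TPM in NB4. RXRB was thus above RXRA in Kasumi-1 and below it in NB4 in every library. RXRG was not analysed here.

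The genes around the fusions were counted in 8 lists in each line. In Kasumi-1, 59 of their genes were tested. None was called without pairing and 8 (13.6%) were called with the replicate block, against 8.14% of all genes (6.08% higher and 2.06% lower). Of 6 tested genes of the RUNX and ETO families with CBFB, 0 were called, with a median log2 change of 0.10 against 0.05 for all genes. RUNX1 and RUNX1T1 are themselves in this list. Of 11 partners and corepressors of RUNX1-RUNX1T1, 1 was called with the block. This was PRMT1, an arginine methyltransferase that methylates RUNX1, which was at a mean of 56.2 FPKM in controls and 47.1 FPKM with JOA (log2 change -0.25, block limma adjusted p = 0.036, and 0.151 without pairing). The median of this list was 0.05.

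Of 10 tested genes known to respond to RUNX1 or its fusion, 1 was called with the block in Kasumi-1, where 8.14% of all genes were called. TRH, the thyrotropin-releasing hormone precursor that is high in leukaemias with this fusion, was at a mean of 104 FPKM in controls and 62.7 FPKM with JOA (log2 change -0.63, block limma adjusted p = 0.036, and 0.674 without pairing). The list divided into 5 members above and 5 below 0, with a median of -0.02. Of 12 nuclear body and SUMO genes, 0 were called, and 3 had changes above and 9 below 0, with a median of -0.06. SUMO3, a modifier attached to PML, had a change of -0.15. Of 8 retinoid receptors and coregulators 0 were called, with a median of 0.07.

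Of 3 tested genes of retinoid metabolism 0 were called in Kasumi-1, with a median of 0.15 and changes of 0.15 for DHRS3 and 0.30 for RDH14. Over the whole Kasumi-1 table the block fit called 8.14% of genes, 6.08% higher, and with any pair left out it called none. Of 8 genes known to respond to retinoic acid in promyelocytes, 3 were called with the block, all higher, with a list median of 0.10. CEBPB, a myeloid transcription factor, was at 4.17 FPKM in controls and 6.72 FPKM with JOA (log2 change 0.57, block limma adjusted p = 0.032, and 0.116 without pairing). UBA7, the enzyme that activates ISG15 and is known to drive loss of PML-RARA, was at 2.75 and 4.55 FPKM (log2 change 0.56, block limma adjusted p = 0.029, and 0.116 without). ICAM1, an adhesion molecule, was at 2.80 and 4.19 FPKM (log2 change 0.45, block limma adjusted p = 0.034, and 0.146 without). Of 8 other fusion partner genes of RARA or RUNX1, 3 were called with the block, all higher, with a list median of 0.15. These were NUMA1 (13.3 and 16.7 FPKM, log2 change 0.31), IRF2BP2 (25.2 and 31.0 FPKM, 0.29) and STAT5B (26.5 and 31.2 FPKM, 0.22), with block limma adjusted p = 0.029, 0.046 and 0.040 and 0.146, 0.177 and 0.414 without pairing. With median-ratio scaling the medians of the 8 lists in Kasumi-1, in the order given and against 0.0035 for all genes, were 0.048, 0.0057, -0.060, -0.11, 0.023, 0.11, 0.058 and 0.10.

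In NB4 none of 92 tested genes of the 8 lists was called by the unpaired fit, with a lowest limma adjusted p of 0.259. The medians of the lists, against 0.08 for all genes, were 0.13 for the RUNX and ETO families (6 tested), 0.14 for partners and corepressors (15 tested) and 0.06 for RUNX1-responsive genes (14 tested). They were 0.15 for nuclear body and SUMO genes (20 tested), 0.20 for retinoid receptors and coregulators (12 tested) and -0.08 for retinoid metabolism (8 tested). They were 0.07 for retinoic acid responsive genes (12 tested) and 0.08 for other fusion partners (12 tested). After median-ratio scaling the medians, in the same order and against -0.0024 for all genes, were 0.040, 0.046, -0.015, 0.050, 0.10, -0.14, -0.027 and -0.013. That scaling turned the sign of the median for RUNX1-responsive genes, retinoic acid responsive genes and other fusion partners. Each of these medians lay below that of all genes both before and after scaling. MPO was at a mean of 7838 TPM in controls and 5282 TPM with JOA (log2 change -0.58, limma adjusted p = 0.276). UBA7 was at 34.5 and 56.5 TPM (log2 change 0.71, limma adjusted p = 0.259). With the variance shared over both lines, limma called 156 of 7261 genes in NB4 (2.15%, with 1.68% higher), none of them a partner gene, in a fit that did not hold PML. Of 65 list genes in that fit, JUP, ITGAM and UBA7 were called, all higher (limma adjusted p = 0.047, 0.047 and 0.042). JUP and ITGAM are named here after their values were seen. PRMT1 was at 396 and 357 TPM, HDAC2 at 217 and 228 TPM and SUMO2 at 203 and 230 TPM. NCOR1 was at 67.4 and 83.2 TPM. FABP5, a carrier of retinoic acid, was at 120 and 78.8 TPM and RDH11 at 28.1 and 24.0 TPM. NPM1, a partner of RARA in rare leukaemias, was at 1852 and 1829.6 TPM and IRF2BP2 at 259 and 249 TPM.

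Genes whose pattern over the libraries of a line was most like that of a partner gene were found by the root mean square difference of centred log2(value + 1) values. Over the 6 Kasumi-1 libraries these were CHST10, ADGRL1 and BRD2 for RUNX1 (differences of 0.0126 to 0.0204, against a median of 0.119 over 4272 genes). For RUNX1T1 they were MATK, GNAQ and CCDC174 (0.0155 to 0.0174), and for RARA they were GCAT, ZBTB44 and ARF1 (0.0209 to 0.0253). Over the 4 NB4 libraries they were WBP4, CCDC28A and EXOSC6 for RUNX1 (0.00757 to 0.00996). For PML they were RPAIN, PRKD2 and RPS15A (0.00463 to 0.00699), and for RARA they were DHDDS, S100A11 and TRAPPC10 (0.00753 to 0.0110), out of 9720 genes each. No gene was named for the same partner in both lines. With 4 or 6 libraries that share 2 groups and a scaling, close matches among so many genes are a description only.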

How the data were processed

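The authors deposited 1 table per line. The Kasumi-1 table holds FPKM, per the file's name, in 29053 rows of sequence records, of which 37.5% were matched to a gene symbol. Other rows with a record were kept in the fit as features of their own. The name of the deposited NB4 table says FPKM too, but each column adds up to 999679 to 999758, and the values are treated as TPM. GENCODE gave a gene for 93.9% of its 121005 transcripts, which were added up per gene, while the rest held 3.06% of the TPM. The design had been written for either unit on the same log scale. Cufflinks, HISAT2, HTSeq, Trimmomatic and hg38 are named without roles or versions, per the submitters' processing notes. Steps between low FPKM values put the depth of the Kasumi-1 libraries at 91.4 to 100% of the deepest. TPM keeps no depth, so that of NB4 is unknown.

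Each whole table was fitted with limma 3.58.1 (R 4.3.3, tables read with Python 3.11.15) with a variance trend on log2(value + 1), unpaired, 2-sided, keeping features at 1 or more in at least 3 (Kasumi-1) or 2 (NB4) libraries. A feature was called when its p, adjusted by Benjamini-Hochberg over all features, was under 0.05. A change on this scale understates that of low genes. In Kasumi-1, deviations from the group means correlated at 0.330, 0.500 and 0.424 between same-numbered libraries and at -0.06 or below between others. Those numbers were therefore taken as pairs, on the data alone. The block value is printed beside the unpaired one for the partner genes and some others, and not for the ratios. The fits were also run on simulated data, with an outcome that is not given here. The simulated libraries had independent errors, so they are no check of the pairing. Alternatives were another pseudocount (0.1), no filter, median-ratio scaling, the replicate block, leaving out libraries, shared variance, rescaling and protein-coding transcripts only. Transcripts whose starts lie within 500 bases were joined as 1 start.

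The members and lists were chosen with earlier results of these data known. Named were the 4 genes, their NB4 transcripts at 1 or more in 2 libraries, paralogs and partners, and the 3 genes most like each member with a mean of at least 5. From each list, up to 4 genes past the threshold were named, or the 2 highest where none passed. Some genes that this rule names are not reported here. Members outside this rule are named where a count or a start turned on them, after their values were seen.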

Additional observations from a re-analysis of the deposited data

How the results depend on the processing

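No partner gene passed the threshold under any alternative run, in either line or, for RUNX1 and RARA, for the difference between lines. RUNX1 kept a change above 0 in both lines (0.06 to 0.14 in Kasumi-1 and 0.12 to 0.37 in NB4), as did PML (0.02 to 0.19) and RARA (0.11 to 0.26) in NB4, while RARA stayed below 0 in Kasumi-1 (-0.13 to -0.01). The cause of the shifts below was not tested.

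The change of RUNX1T1 in Kasumi-1 ranged from -0.078 to 0.035 over fits leaving out 1 library, and was 0.0037 or 0.00062 in the replicate block without pair 1 or pair 3. In Kasumi-1 the replicate block called 985 features, and 956 together with median-ratio scaling (chosen after seeing the data, as was leaving out pairs). Leaving out 1 library gave 0 to 1 calls there, the 1 without JOA library 2. In NB4, 0 genes were called with the pseudocount of 0.1, without the filter, with median-ratio scaling and on leaving out any library, 13 on protein-coding transcripts and 156 with variance shared over both lines. NB4 numbers showed a correlation of only 0.066 between same-numbered libraries, so they were taken to share only a number, and the replicate block gave 157 calls. For the difference between lines 14 calls became 36 with the replicate block, 36 without the filter, 2 with the pseudocount of 0.1 and 1 after rescaling every library to the same total. Leaving out 1 library gave 2 to 111, the most without NB4 control 1.

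Of the NB4 transcripts, PML-209 (-0.070) and PML-215 (-0.033) changed sign with median-ratio scaling. Leaving out 1 library let the change of these cross 0: PML-203 (-0.43 to 0.17), PML-206 (-1.73 to 0.010), PML-209 (-0.24 to 0.24), PML-212 (-0.26 to 0.017), PML-214 (-0.33 to 0.29), PML-215 (-0.33 to 0.35), PML-221 (-0.13 to 0.89), PML-222 (-0.13 to 0.74), RUNX1-202 (-0.011 to 0.26), RUNX1-204 (-0.19 to 0.90), RUNX1-205 (-0.65 to 0.40), RUNX1-210 (-0.53 to 1.31), RUNX1-213 (-0.17 to 0.092) and RUNX1-215 (-0.30 to 0.19). Those that kept their sign but moved by over 1.5 times were RUNX1-207 (0.26 to 0.81), PML-201 (0.12 to 0.27), PML-202 (0.11 to 1.06), PML-207 (-0.25 to -0.065), PML-211 (0.74 to 2.02), PML-218 (0.31 to 1.59), RARA-205 (0.042 to 0.59), RARA-206 (0.080 to 0.25) and RARA-208 (0.061 to 0.64). The ratio of RUNX1T1 to RUNX1 kept its direction without any 1 library (-0.16 to -0.11 on the log2 scale), and that of RARA to PML did not (-0.04 to 0.21). For RUNX1T1 in NB4, values near 0 have no counting interval, as the depth is unknown. They rest on the 2 listed of 52 annotated transcripts. RUNX1T1-248, which is paired with the Kasumi-1 record, is not listed. The part of depth and of unlisted transcripts in these values was not tested.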
